A study of Rattus norvegicus with 8 samples.

Results

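Cell cycle and DNA replication genes were followed in cultured heart muscle cells that overexpressed the ubiquitin ligase HectD3. The genes were chosen by name, as 48 genes that take a cell from G1 through DNA synthesis to division, and 47 of the 48 were found among the 12784 gene names of the table. Ccnb2 is not analysed here. Of the 47 genes, 4 encode D cyclins and their kinase Cdk4, 4 act at the G1/S boundary, 2 are Cdk inhibitors, 8 license replication origins, and 5 copy DNA or make its nucleotides. The other 24 act in mitosis, with 6 at mitotic entry, 11 on chromosomes, spindle and checkpoint, 2 at mitotic exit, and 5 in cytokinesis.

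A cell commits to division when D cyclins with Cdk4 relieve the block that Rb proteins place on E2F factors. E2F then switches on the genes of DNA replication, and a later program, driven by B-Myb and FoxM1 with the MuvB complex, switches on the genes of G2 and mitosis. Rodent heart muscle cells leave the cycle around birth, many after a last round of nuclear division without cytokinesis. The mRNAs of the mitotic genes are therefore widely used as a readout of how many cells in a culture are cycling.

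NRVCMs, neonatal rat ventricular cardiomyocytes separated on a Percoll gradient, received an adenovirus for HectD3 in 4 libraries or, as control, for the bacterial enzyme LacZ in 4 libraries. Both groups were cells of newborn rats, kept for 24 h in medium with serum and then for 72 h with virus in serum-depleted medium. The study's methods name Wistar rats and its reporting summary Sprague Dawley rats, and no genotype is given beyond the virus. The labels do not say whether the 4 libraries of a virus are separate cultures, so each p-value sets the difference only against the spread of these samples, and that spread may be technical.

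Hectd3 was at 547, 915, 590 and 161 FPKM in HectD3 1 to 4, against 7.89, 7.86, 6.18 and 6.49 FPKM in LacZ 1 to 4, so the overexpressed gene matched the label of every library. FPKM is a read density per length of transcript and size of library. The total of the table was 554960 to 595172 FPKM in HectD3 libraries and 546642 to 563051 FPKM in LacZ libraries, and the read depth is unknown. LacZ 1, LacZ 2 and HectD3 4 stood apart from the rest. The leading principal component held 58.4% of the variance, and on it HectD3 4 was at -13.4, LacZ 1 at -40.8 and LacZ 2 at -27.1, while the other 5 libraries lay between 9.01 and 18.8. Cardiomyocyte markers, with 9 of 10 measured and Ttn not among them, summed to 13373 to 14196 FPKM in HectD3 libraries and 13226 to 14070 FPKM in LacZ libraries. The median of these markers, as log2(FPKM + 1) minus the mean of the 8 libraries, was -0.07 to -0.04 in HectD3 libraries, against 0.19, 0.07, 0.07 and 0.06 in LacZ 1 to 4, so it was highest in LacZ 1. Its part in the cell cycle values was not tested. Markers of other cells were present too, and RNA of bulk samples cannot tell fewer cells of a type from less RNA per cell.

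None of the cell cycle genes passed the test between HectD3 and LacZ after adjustment. At an adjusted p under 0.05 (limma), 0 of 47 genes were called, where 0.00796% of the 12567 genes tested were, which is Hectd3 alone. A plain linear model of each gene was built like the test of Ballgown, with each library's sum of log2(FPKM + 1) as covariate. It called 0 of 47, but also 0 of all 12567 genes, so it missed even Hectd3 and adds nothing on the 47. At an unadjusted p under 0.05, 0 of 47 genes were lower with HectD3, where 4.28% of all genes were, and 1 of 47, Ccnd3, was higher, where 2.87% of all genes were. The log2 fold change, HectD3 minus LacZ, was nevertheless negative in 42 of 47 genes, where it was negative in 55.5% of all genes. Its median was -0.25 over the 47 genes and -0.02 over all genes tested.

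The negative fold changes moved with LacZ 1 and LacZ 2. Without LacZ 1, LacZ 2 and HectD3 4, 17 of 47 genes had a negative log2 fold change, where 43.8% of all genes did, and the median over the 47 genes was 0.05. Without LacZ 1 and LacZ 2, an alternative chosen after their mitotic levels were seen, 18 of 47 genes had a negative log2 fold change, where 41.5% of all genes did, and the median was again 0.05. LacZ 1 and LacZ 2 lay above all other libraries in 33 of 47 genes. Leaving these 2 out raises the log2 fold change of those genes by arithmetic, so neither setting is an independent check. At an adjusted p under 0.05 (limma), 0 of 47 genes passed in either setting, where 0.0641% and 0.016% of all genes did. Without LacZ 1 alone the median was -0.11, with 35 of 47 genes negative, where 49.2% of all genes were, and 0 of 47 lower at an unadjusted p under 0.05, where 2.79% of all genes were. Without LacZ 2 alone the median was -0.21, with 42 of 47 genes negative, and the median over all genes was -0.01. Leaving out a library from the other end added calls at an unadjusted p under 0.05. Without LacZ 3, 9 of 47 genes were lower, where 6.88% of all genes were. Without LacZ 4, 5 of 47 genes were lower, where 5.7% of all genes were. Without HectD3 3, 4 of 47 genes were lower, where 3.36% of all genes were. None of these passed an adjusted p under 0.05.

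Settings that treat the libraries differently moved the same counts. With limma's library weights, 28 of 47 genes had a negative log2 fold change, where 44.3% of all genes did, and 1 of 47 was lower at an unadjusted p under 0.05, where 5.42% of all genes were. With TPM, 43 of 47 genes had a negative one, where 65.7% of all genes did, and 3 of 47 were lower at that threshold, where 5.84% of all genes were. With median-ratio scaling 1 of 47 was lower, where 4.33% of all genes were.

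**Figure D1:**
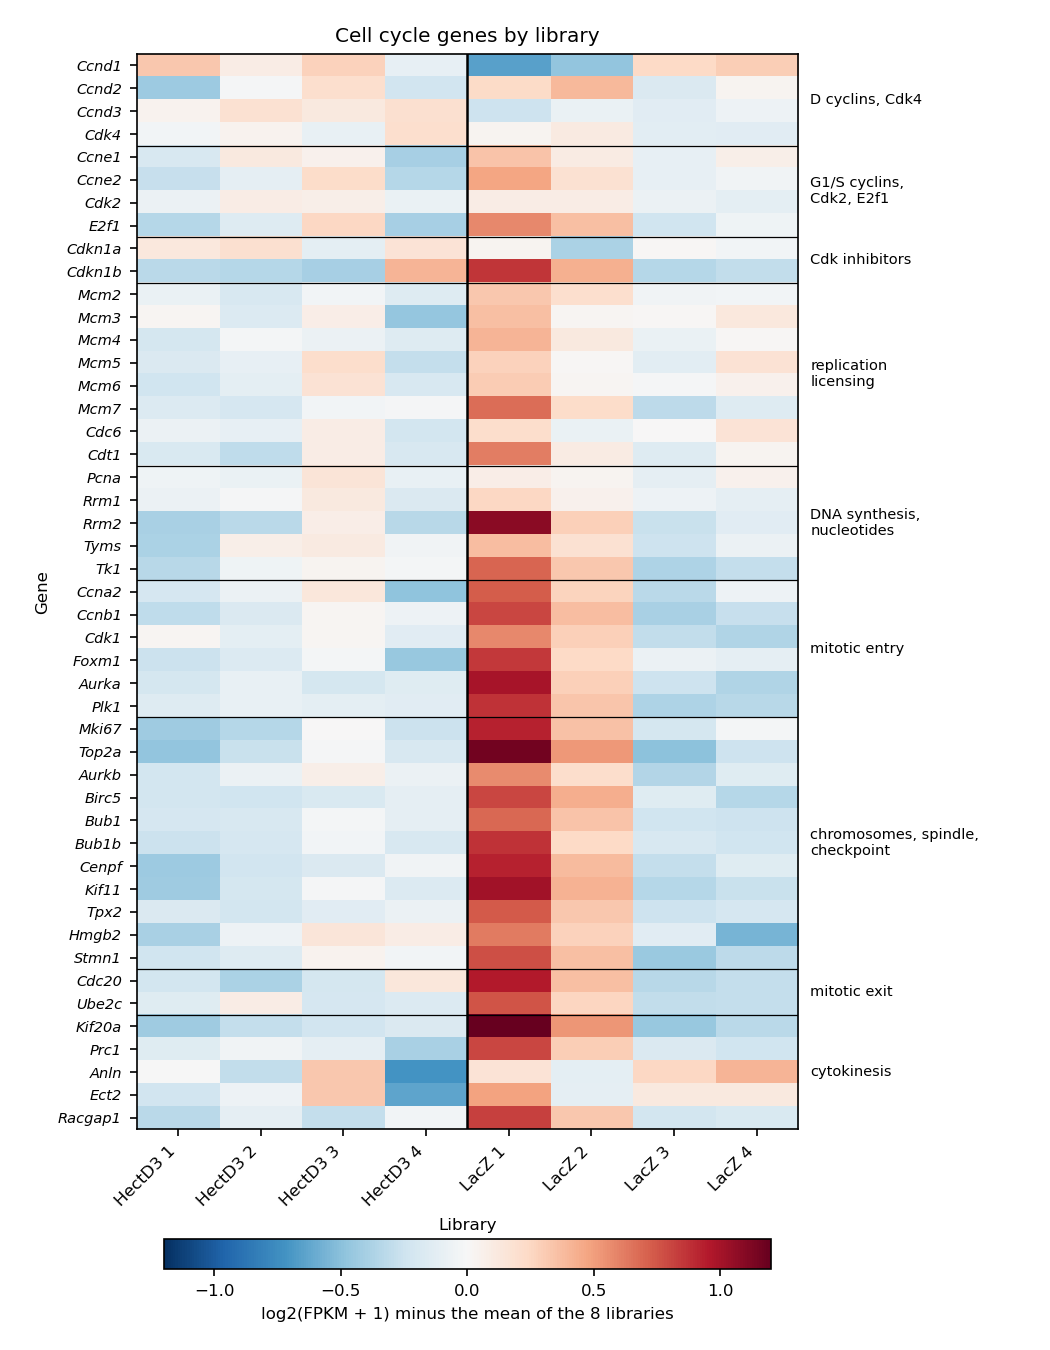
Level of each of the 47 cell cycle genes in each of the 8 libraries, as log2(FPKM + 1) minus its mean over the 8 libraries (colour), with HectD3 libraries left of LacZ libraries and genes grouped by role. LacZ 1 holds the highest value of 39 genes, and the mitotic genes of LacZ 1 and LacZ 2 form the red block.

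LacZ 1 held the highest level of 39 of the 47 genes, where it held the highest of 32.6% of all genes. LacZ 1 and LacZ 2 together lay above all other libraries in 33 of 47 genes, where they did in 24.5% of all genes. The median over the 47 genes of log2(FPKM + 1), minus the mean of the 8 libraries, was -0.21, -0.11, 0.03 and -0.15 in HectD3 1 to 4, against 0.62, 0.26, -0.19 and -0.13 in LacZ 1 to 4. LacZ 1 was thus far above the rest and LacZ 2 next, and the other 2 LacZ libraries lay within the range of the HectD3 libraries. Over all genes tested, the same median was -0.06 to 0.03 in HectD3 libraries and -0.05 to 0.08 in LacZ libraries. The spread followed. The SD of log2 values was larger among LacZ libraries in 38 of 47 genes, where it was in 60.5% of all genes, and its median over the 47 genes was 0.15 in HectD3 libraries and 0.45 in LacZ libraries. HectD3 4, which also stood apart on the principal component, joined LacZ 1 and LacZ 2 above the other 5 libraries in 8 of 47 genes. That is near the share over all genes, 21.5%.

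Markers of several other cell types were low in LacZ 1, and some of these lists were low in LacZ 2 as well. The 9 smooth muscle and pericyte markers, all measured, summed to 2189 to 3558 FPKM in HectD3 libraries, with HectD3 4 lowest, against 1833, 2449, 3989 and 3595 FPKM in LacZ 1 to 4. Macrophage and leukocyte markers, with 10 of 13 measured, summed to 402 to 502 FPKM in HectD3 libraries, against 364, 375, 468 and 461 FPKM in LacZ 1 to 4. Epicardial markers, 4 of 4 measured, summed to 18.1 to 20.1 FPKM in HectD3 libraries, against 14.7, 16.0, 20.0 and 20.5 FPKM in LacZ 1 to 4. By their sums these 3 lists were thus lowest in LacZ 1. Fibroblast markers, with 10 of 11 measured and Col1a2 not among them, summed to 1787 to 2035 FPKM in HectD3 libraries and 1800 to 2057 FPKM in LacZ libraries. Endothelial markers, with 9 of 10 measured and Pecam1 not among them, summed to 113 to 138 FPKM in HectD3 libraries and 108 to 130 FPKM in LacZ libraries. The fibroblast sum was highest in LacZ 2, and the endothelial sum was lowest in LacZ 3. By the median used for the cardiomyocyte markers, fibroblast and endothelial markers were lowest in LacZ 1, at -0.16 and -0.20. In LacZ 2 these medians were 0.02 and 0.10. The macrophage and leukocyte median was lowest in LacZ 2, at -0.20, against -0.17 in LacZ 1. Schwann cell markers, with 2 of 6 measured, summed to 1.87 to 3.02 FPKM in HectD3 libraries and 2.89 to 4.61 FPKM in LacZ libraries, highest in LacZ 1. No measured marker of any list was at 0 in all libraries, and the 5 erythroid markers are not analysed here. The part of these cells in the levels of the cell cycle genes was not tested.

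**Figure D2:**
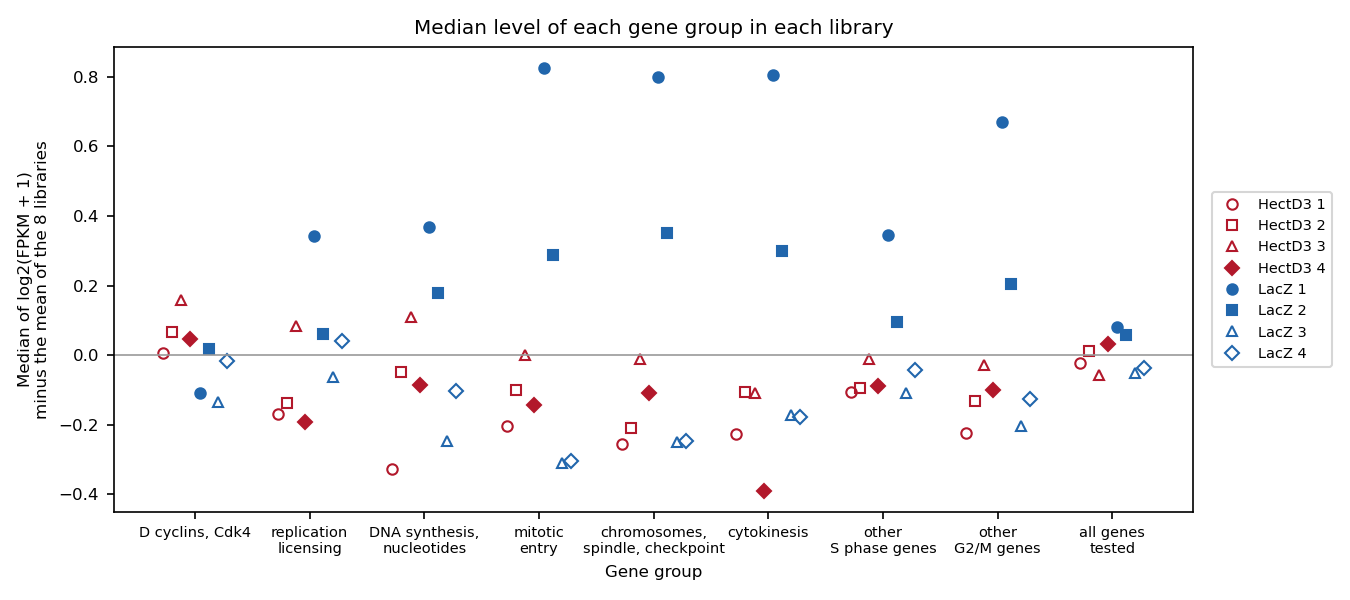
Median level of gene groups in each library, as log2(FPKM + 1) minus the mean over the 8 libraries (vertical axis), with HectD3 libraries in red left of LacZ libraries in blue and filled symbols for the 3 libraries that stood apart. Mitotic entry, chromosomes with spindle and checkpoint, and cytokinesis reach 0.80 to 0.83 in LacZ 1, and all genes tested stay between -0.06 and 0.08 in every library.

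D cyclins link growth signals to the cycle, and Ccnd3 and Cdk4 were among the most abundant of the 47 genes. Ccnd3 averaged 108 ± 5.13 FPKM in HectD3 libraries and 89.4 ± 5.10 FPKM in LacZ libraries (SD, n = 4 each), with Cdk4 at 113 ± 10.3 FPKM in HectD3 and 109 ± 9.28 FPKM in LacZ libraries. Ccnd2 averaged 47.4 ± 9.28 FPKM in HectD3 and 56.0 ± 9.46 FPKM in LacZ libraries, and Ccnd1 27.7 ± 3.74 FPKM in HectD3 and 23.2 ± 7.90 FPKM in LacZ libraries. Cdk4 and Ccnd3 thus overlapped in level, above Ccnd2 and then Ccnd1.

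Ccnd3, the D cyclin that is kept in many differentiated cells, was the 1 gene of the 47 whose groups did not overlap. Its level was 101, 111, 106 and 112 FPKM in HectD3 1 to 4, against 82.4, 92.8, 88.8 and 93.6 FPKM in LacZ 1 to 4. Every HectD3 library lay above every LacZ library, as in 2.44% of all genes, while 1 of 47 genes is 2.13%, and the opposite order, found in 2.81% of all genes, was found in 0 of 47. The log2 fold change was 0.26 (standard error 0.07), the adjusted p was 0.489 (limma), and the two-sided exact permutation test gave p = 0.0286, the smallest that 4 libraries against 4 allow. Over the alternatives the fold change was 0.22 to 0.29 with an adjusted p of 0.189 to 0.932, and without LacZ 1, LacZ 2 and HectD3 4 it was 0.22 (standard error 0.07).

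Ccnd1, the D cyclin most tied to mitogens, ran against the mitotic genes. Its level was 31.2, 26.3, 30.2 and 23.0 FPKM in HectD3 1 to 4, against 15.4, 17.6, 29.4 and 30.6 FPKM in LacZ 1 to 4. LacZ 1, LacZ 2 and HectD3 4 were the 3 lowest libraries, as in 1 of 47 genes and in 9.26% of all genes. Ccnd2 was at 37.3, 50.4, 58.8 and 43.2 FPKM in HectD3 1 to 4, against 60.1, 66.8, 45.1 and 52.0 FPKM in LacZ 1 to 4. Its groups overlapped, and its log2 fold change was -0.24 (limma, standard error 0.16, adjusted p = 0.729). Cdk4 was at 108, 114, 104 and 127 FPKM in HectD3 1 to 4, against 113, 119.5, 101 and 101 FPKM in LacZ 1 to 4, with no order by library that matched the mitotic genes.

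At the G1/S boundary, Ccne1 and Ccne2, the E cyclins that activate Cdk2, and E2f1, a transcription factor that switches on replication genes, were highest in LacZ 1. E2f1 was at 4.56, 5.32, 7.38 and 4.36 FPKM in HectD3 1 to 4, against 9.54, 8.04, 4.98 and 5.79 FPKM in LacZ 1 to 4. The highest libraries were LacZ 1 and LacZ 2, and the others overlapped. E2f1 had a log2 fold change of -0.32 (limma, standard error 0.21, adjusted p = 0.727), and without LacZ 1, LacZ 2 and HectD3 4 it was 0.06. Ccne1 ran from 3.31 to 5.19 FPKM in HectD3 libraries and from 4.34 to 6.25 FPKM in LacZ libraries, and Ccne2 from 3.40 to 5.49 FPKM in HectD3 libraries and from 4.20 to 6.75 FPKM in LacZ libraries. Cdk2, the kinase itself, stayed within 18.1 to 20.4 FPKM in HectD3 libraries and 17.7 to 20.5 FPKM in LacZ libraries, with a log2 fold change of 0.00 (limma, standard error 0.09, adjusted p = 0.996).

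The 2 Cdk inhibitors followed different libraries. Cdkn1a, or p21, which p53 induces, was the most abundant of the 47 genes, at 128, 134, 108 and 132 FPKM in HectD3 1 to 4, against 120.0, 89.5, 118 and 115 FPKM in LacZ 1 to 4. LacZ 2 was lowest and HectD3 3 next. For Cdkn1a the log2 fold change was 0.18 (limma, standard error 0.11, adjusted p = 0.724). Cdkn1b, or p27, which holds resting cells in G1, was at 32.5, 32.1, 30.7 and 54.8 FPKM in HectD3 1 to 4, against 75.2, 55.3, 32.2 and 33.2 FPKM in LacZ 1 to 4. LacZ 1, LacZ 2 and HectD3 4 were the 3 highest libraries, as in 21.5% of all genes. The other 5 libraries lay within 30.7 to 33.2 FPKM. In limma Cdkn1b had a log2 fold change of -0.33, with a standard error of 0.29 and an adjusted p of 0.757, and without those 3 libraries it was -0.04 (standard error 0.07). In LacZ 1 and LacZ 2 this inhibitor of division thus stood high together with the mitotic genes, whereas in HectD3 4 it stood high while the median of the mitotic genes was at -0.14 relative to the mean of the 8 libraries, on the log2 scale.

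**Figure D3:**
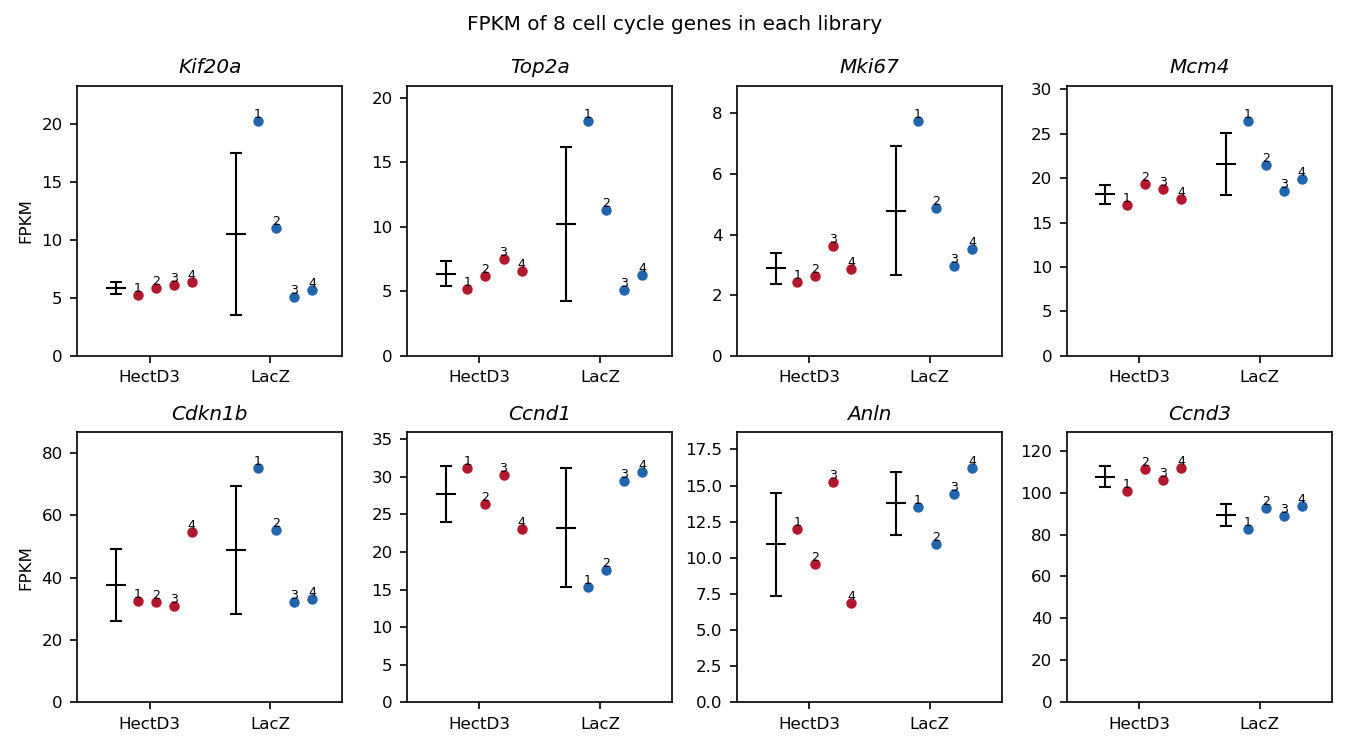
FPKM of 8 cell cycle genes in each library (points, numbered by replicate), with the mean and SD of each group of 4 (bars), HectD3 left of LacZ and every vertical axis starting at 0. LacZ 1 and LacZ 2 lie above the rest for Kif20a, Top2a, Mki67, and Mcm4, HectD3 4 joins them for Cdkn1b, and Ccnd3 is the 1 gene whose groups do not overlap.

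The 13 genes of DNA replication all had a negative log2 fold change, where 55.5% of all genes did, with a median of -0.18. The groups overlapped in all 13. Over all genes they did not overlap in 2.44% with HectD3 higher and 2.81% with HectD3 lower. The Mcm2 to Mcm7 proteins form the helicase that is loaded on origins. Mcm2 was at 14.5, 13.4, 15.0 and 13.7 FPKM in HectD3 1 to 4, against 19.5, 17.8, 14.9 and 15.0 FPKM in LacZ 1 to 4. LacZ 1 and LacZ 2 were above the other 6 libraries, which lay between 13.4 and 15.0 FPKM. With a standard error of 0.11, the limma log2 fold change of Mcm2 came to -0.22 (adjusted p = 0.711), and without LacZ 1, LacZ 2 and HectD3 4 it was -0.06.

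The other helicase genes shared the high level in LacZ 1. Mcm4 was at 17.0, 19.4, 18.8 and 17.7 FPKM in HectD3 1 to 4, against 26.4, 21.5, 18.6 and 19.9 FPKM in LacZ 1 to 4. Mcm7 was at 17.5, 17.0, 19.3 and 19.5 FPKM in HectD3 1 to 4, against 32.0, 23.1, 15.6 and 17.5 FPKM in LacZ 1 to 4. In both genes LacZ 1 was highest and LacZ 2 second. Mcm3 ran from 9.08 to 13.7 FPKM in HectD3 libraries and from 13.0 to 16.8 FPKM in LacZ libraries, Mcm5 from 7.82 to 11.4 FPKM in HectD3 libraries and from 8.86 to 12.0 FPKM in LacZ libraries, and Mcm6 from 12.0 to 16.3 FPKM in HectD3 libraries and from 14.2 to 18.0 FPKM in LacZ libraries. By mean level over the 8 libraries the order was Mcm7, Mcm4, Mcm2, Mcm6, Mcm3 and Mcm5, at 20.2, 19.9, 15.5, 14.4, 13.0 and 9.83 FPKM. The first pair differed by less than their spread.

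Cdc6 and Cdt1, the factors that load the helicase, were lower in level than the helicase genes. Cdt1 was at 4.71, 4.25, 5.88 and 4.66 FPKM in HectD3 1 to 4, against 8.89, 5.91, 4.82 and 5.63 FPKM in LacZ 1 to 4. Cdc6 ran from 2.09 to 2.82 FPKM in HectD3 libraries and from 2.39 to 3.17 FPKM in LacZ libraries. LacZ 1 was highest for both.

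Among the genes of DNA synthesis, the subunits of ribonucleotide reductase differed in how far they varied. Rrm2, the small subunit made in S phase, was at 8.43, 8.91, 12.1 and 8.86 FPKM in HectD3 1 to 4, against 25.3, 14.1, 9.30 and 10.3 FPKM in LacZ 1 to 4. LacZ 1 stood at 2.85 times the median HectD3 library, the highest such ratio among the 13 genes, and LacZ 3 and LacZ 4 lay within the HectD3 range. Rrm2 had a log2 fold change of -0.49 (limma, standard error 0.27, adjusted p = 0.723), and without LacZ 1, LacZ 2 and HectD3 4 it was -0.01. Rrm1, the large subunit, ran from 61.3 to 75.4 FPKM in HectD3 libraries and from 64.4 to 82.4 FPKM in LacZ libraries. Pcna, the sliding clamp of DNA polymerase, was at 62.6, 61.4, 72.7 and 61.2 FPKM in HectD3 1 to 4, against 69.0, 66.7, 60.3 and 67.5 FPKM in LacZ 1 to 4, and it was the 1 replication gene that was not highest in LacZ 1. Tyms, which makes thymidylate, ran from 9.27 to 13.4 FPKM in HectD3 libraries and from 10.3 to 16.2 FPKM in LacZ libraries, and Tk1, which salvages thymidine, from 6.37 to 8.47 FPKM in HectD3 libraries and from 6.17 to 14.0 FPKM in LacZ libraries.

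All 24 mitotic genes had a negative log2 fold change, where 55.5% of all genes did, with a median of -0.33 and a range of -0.56 to -0.10. The groups overlapped in all 24. Over all genes they did not overlap in 2.44% with HectD3 higher and 2.81% with HectD3 lower. LacZ 1 was the highest library for 23 of the 24, with Anln as the exception, where it was for 32.6% of all genes. LacZ 1 and LacZ 2 lay above all other libraries for 22, with Anln and Ect2 as exceptions. They did so for 24.5% of all genes. LacZ 1 stood at 1.25 to 3.39 times the median HectD3 library, with a median over the genes of 2.12, and LacZ 2 at 1.02 to 1.89 times, with a median of 1.46. For the 13 replication genes the median ratio was 1.38 in LacZ 1 and 1.14 in LacZ 2. Without LacZ 1, LacZ 2 and HectD3 4, 6 of the 24 mitotic genes had a negative log2 fold change, where 43.8% of all genes did. The median over the 24 genes was then 0.10.

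Many mitotic genes share a promoter element, the CHR, which MuvB complexes bind, often close to CCAAT boxes that NF-Y binds. Promoters from RefSeq (GRCr8, 250 bases before to 50 bases after each gene's start) were matched by symbol for 34 of the 47 genes. The CHR was searched as TTTGAA or TTCGAA, the CCAAT box as CCAAT, and E2F sites as TTTGGCGC, TTTGCCGC, TTTCGCGC or TTTCCCGC, each on both strands. CHR letters were in 12 of 18 mitotic windows, 66.7%, where they were in 19.7% of all 33469 windows. CCAAT was in 14 of 18 mitotic windows, 77.8%, and in 37.5% of all windows, and both were in 10 of 18, 55.6%, and in 7.95% of all windows. Windows of replication genes held CHR letters in 3 of 10, 30%, CCAAT in 6 of 10, 60%, and both in 2 of 10, 20%. E2F letters were in 7 of 10 windows of replication genes, 70%, in 2 of 18 mitotic windows, and in 2.14% of all windows. These matches are a description of the sequence and not of binding.

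Of the mitotic genes with both elements, the 4 that varied most across the libraries are shown. They were picked by that spread in these same levels, and a link between the motifs and the levels was not tested. Each window is written 5′ to 3′ along its gene, and capitals mark CHR and CCAAT letters on either strand, so that ATTGG and TTCAAA are matches on the other strand. All 4 lie on the minus strand of GRCr8, Top2a at chr10:84473044-84473343, Cdc20 at chr5:137255750-137256049, Mki67 at chr1:199952544-199952843, and Cenpf at chr13:103760837-103761136. In Mki67 a CHR and a CCAAT box overlap in TTTGAATTGG.
Top2a: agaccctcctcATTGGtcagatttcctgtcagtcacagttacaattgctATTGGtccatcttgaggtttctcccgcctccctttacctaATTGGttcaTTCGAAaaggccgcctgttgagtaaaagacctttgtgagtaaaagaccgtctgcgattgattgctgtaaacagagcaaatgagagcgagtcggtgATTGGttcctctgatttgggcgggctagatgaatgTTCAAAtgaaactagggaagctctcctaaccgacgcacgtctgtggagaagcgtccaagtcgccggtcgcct
Cdc20: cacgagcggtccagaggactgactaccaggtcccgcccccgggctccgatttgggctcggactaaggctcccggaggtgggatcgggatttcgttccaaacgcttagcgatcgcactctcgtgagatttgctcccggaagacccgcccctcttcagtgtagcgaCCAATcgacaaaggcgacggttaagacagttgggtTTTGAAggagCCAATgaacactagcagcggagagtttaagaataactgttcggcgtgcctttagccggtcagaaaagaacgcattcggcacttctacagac
Mki67: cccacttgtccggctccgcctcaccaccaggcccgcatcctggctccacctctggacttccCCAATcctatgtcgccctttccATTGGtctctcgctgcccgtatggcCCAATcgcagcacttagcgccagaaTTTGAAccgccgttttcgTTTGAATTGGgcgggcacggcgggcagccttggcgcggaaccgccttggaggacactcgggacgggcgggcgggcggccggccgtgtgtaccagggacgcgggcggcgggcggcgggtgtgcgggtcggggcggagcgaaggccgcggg
Cenpf: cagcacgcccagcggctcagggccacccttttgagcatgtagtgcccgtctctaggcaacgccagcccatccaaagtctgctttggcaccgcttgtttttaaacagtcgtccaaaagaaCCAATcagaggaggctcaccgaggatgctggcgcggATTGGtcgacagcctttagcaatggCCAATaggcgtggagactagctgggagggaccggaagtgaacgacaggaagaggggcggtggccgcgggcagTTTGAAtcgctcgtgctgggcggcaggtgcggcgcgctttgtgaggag

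At mitotic entry, Foxm1, the transcription factor that raises many of the other mitotic genes, was at 3.41, 3.71, 4.19 and 2.86 FPKM in HectD3 1 to 4, against 8.49, 5.24, 4.02 and 3.91 FPKM in LacZ 1 to 4. LacZ 1 and LacZ 2 were highest and HectD3 3 lay within the LacZ range. For Foxm1 the log2 fold change was -0.45 (limma, standard error 0.21, adjusted p = 0.708), and without LacZ 1, LacZ 2 and HectD3 4 it was -0.06. Cdk1, the mitotic kinase, and Ccnb1, its B cyclin partner, followed the same libraries. Cdk1 was at 23.2, 20.9, 23.2 and 20.5 FPKM in HectD3 1 to 4, against 34.3, 28.0, 18.3 and 17.4 FPKM in LacZ 1 to 4. Ccnb1 was at 6.25, 6.92, 8.12 and 7.58 FPKM in HectD3 1 to 4, against 14.7, 10.6, 5.84 and 6.41 FPKM in LacZ 1 to 4. In Cdk1 the HectD3 libraries lay between the pair LacZ 1 and LacZ 2 above and the pair LacZ 3 and LacZ 4 below, and so did those of Plk1. For Cdk1 this holds for the sum of its 3 transcripts and not for its main transcript alone.

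Plk1, a kinase of mitotic entry and spindle assembly, was at 4.97, 5.26, 5.13 and 5.05 FPKM in HectD3 1 to 4, against 11.2, 7.38, 4.13 and 4.27 FPKM in LacZ 1 to 4. Aurka, the centrosome kinase that activates Plk1, was at 3.18, 3.56, 3.19 and 3.37 FPKM in HectD3 1 to 4, against 8.62, 4.91, 3.07 and 2.77 FPKM in LacZ 1 to 4. The HectD3 libraries of both kinases were close together, and the LacZ libraries covered a range that enclosed them. Ccna2, the A cyclin of S phase and G2, ran from 5.62 to 9.17 FPKM in HectD3 libraries and from 6.40 to 14.3 FPKM in LacZ libraries.

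Among the genes of chromosomes and spindle, Mki67, the Ki-67 antigen that coats mitotic chromosomes and marks cycling cells, was at 2.42, 2.64, 3.62 and 2.87 FPKM in HectD3 1 to 4, against 7.73, 4.88, 2.98 and 3.53 FPKM in LacZ 1 to 4. HectD3 3 lay above both LacZ 3 and LacZ 4. In limma Mki67 had a log2 fold change of -0.51, with a standard error of 0.23 and an adjusted p of 0.705, and without LacZ 1, LacZ 2 and HectD3 4 it was -0.14 (standard error 0.16). Top2a, which untangles DNA before chromosomes part, was at 5.21, 6.17, 7.53 and 6.55 FPKM in HectD3 1 to 4, against 18.2, 11.3, 5.12 and 6.25 FPKM in LacZ 1 to 4. Again LacZ 1 and LacZ 2 were the highest, and LacZ 3 was the lowest library of the 8.

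Of the checkpoint and kinetochore genes, Cenpf was the lowest in level of all 47, at 0.926, 1.23, 1.31 and 1.52 FPKM in HectD3 1 to 4, against 3.95, 2.39, 1.14 and 1.35 FPKM in LacZ 1 to 4. Bub1 and Bub1b hold cells until chromosomes are attached. Bub1 lay at 2.63 to 3.11 FPKM in HectD3 libraries, against 2.51 to 5.72 FPKM in LacZ libraries, and Bub1b at 1.88 to 2.36 FPKM in HectD3 libraries, against 1.91 to 5.26 FPKM in LacZ libraries. Of the chromosomal passenger complex, Aurkb lay at 2.89 to 3.74 FPKM in HectD3 libraries, against 2.55 to 5.71 FPKM in LacZ libraries, and Birc5 at 5.66 to 6.27 FPKM in HectD3 libraries, against 5.21 to 12.7 FPKM in LacZ libraries. In each of these genes the top of the LacZ range was LacZ 1. Kif11, the motor that separates spindle poles, ran from 2.33 to 3.43 FPKM in HectD3 libraries and from 2.51 to 7.97 FPKM in LacZ libraries, and Tpx2, a spindle assembly factor, from 6.93 to 7.79 FPKM in HectD3 libraries and from 6.79 to 14.4 FPKM in LacZ libraries.

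Stmn1, or stathmin, which destabilises microtubules, was the most abundant mitotic gene, at 57.6, 61.2, 69.9 and 66.6 FPKM in HectD3 1 to 4, against 117, 87.9, 49.8 and 54.5 FPKM in LacZ 1 to 4. All HectD3 libraries lay below LacZ 1 and LacZ 2 and above LacZ 3 and LacZ 4. Hmgb2, a chromatin protein, ran from 4.35 to 6.76 FPKM in HectD3 libraries and from 3.75 to 9.78 FPKM in LacZ libraries. Its deposited transcript spans 633 bases on chromosome 11 whereas RefSeq places Hmgb2 on chromosome 16, so its value is uncertain.

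At mitotic exit, Cdc20, which activates the anaphase-promoting complex, was at 9.67, 8.55, 9.77 and 12.7 FPKM in HectD3 1 to 4, against 23.1, 15.0, 8.92 and 9.20 FPKM in LacZ 1 to 4. With a standard error of 0.27, the limma log2 fold change of Cdc20 came to -0.34 (adjusted p = 0.743), and without LacZ 1, LacZ 2 and HectD3 4 it was 0.04. Only LacZ 1 and LacZ 2 were above HectD3 4. Ube2c, the ubiquitin-conjugating enzyme of that complex, ran from 13.0 to 16.3 FPKM in HectD3 libraries and from 12.2 to 26.2 FPKM in LacZ libraries.

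In cytokinesis, Kif20a, a kinesin of the central spindle, had LacZ 1 at 3.39 times the median HectD3 library, the highest such ratio among the 24 mitotic genes. Its level was 5.21, 5.81, 6.11 and 6.40 FPKM in HectD3 1 to 4, against 20.2, 11.0, 5.09 and 5.67 FPKM in LacZ 1 to 4. Racgap1, of the centralspindlin complex, was at 3.59, 4.34, 3.72 and 4.64 FPKM in HectD3 1 to 4, against 9.13, 6.21, 3.93 and 4.08 FPKM in LacZ 1 to 4. Both genes had LacZ 1 and LacZ 2 on top. LacZ 3 was the lowest library for Kif20a, and for Racgap1 LacZ 3 and LacZ 4 lay among the HectD3 libraries. Racgap1 had a log2 fold change of -0.37 (limma, standard error 0.22, adjusted p = 0.724), and without LacZ 1, LacZ 2 and HectD3 4 it was -0.04. Prc1, which bundles the microtubules of the midzone, ran from 10.9 to 14.1 FPKM in HectD3 libraries and from 12.1 to 26.2 FPKM in LacZ libraries.

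Anln and Ect2, which act on the contractile ring, did not follow that order. Anln, or anillin, was at 12.0, 9.59, 15.3 and 6.88 FPKM in HectD3 1 to 4, against 13.5, 11.0, 14.4 and 16.2 FPKM in LacZ 1 to 4. Ect2, the exchange factor that activates RhoA at the ring, was at 1.62, 1.94, 2.83 and 0.976 FPKM in HectD3 1 to 4, against 3.28, 1.86, 2.32 and 2.33 FPKM in LacZ 1 to 4. HectD3 4 was the lowest library for both, and HectD3 3 was the highest HectD3 library.

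**Figure D4:**
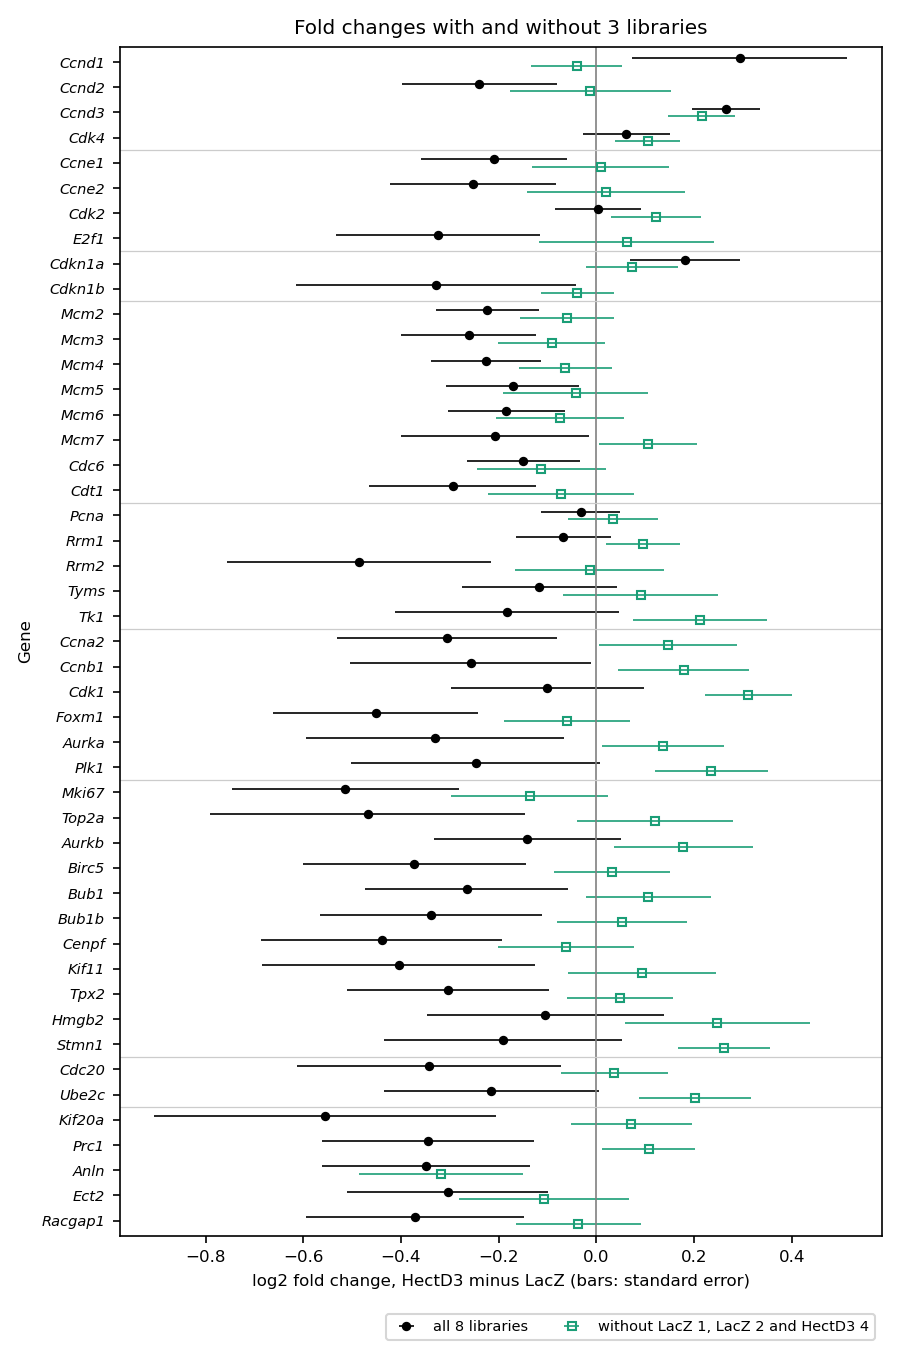
Log2 fold change of each of the 47 genes, HectD3 minus LacZ, with its standard error (bars), from all 8 libraries (black) and without LacZ 1, LacZ 2 and HectD3 4 (green). The log2 fold change is negative for 42 genes with all libraries and for 17 without the 3 libraries.

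Without LacZ 1, LacZ 2 and HectD3 4, Ccnd3, Cdk1 and Stmn1 were higher with HectD3 at an unadjusted p under 0.05 (limma), 3 of 47 genes or 6.38%, where 5.16% of all genes were, and without LacZ 1 and LacZ 2 alone 3 of 47 were, where 4.41% of all genes were. The log2 fold change of Cdk1 was then 0.31 (limma, standard error 0.09, adjusted p = 0.388), and that of Stmn1 was 0.26 (limma, standard error 0.09, adjusted p = 0.456). The Cdk1 value rests on the sum of 3 transcripts. Its main transcript alone overlapped, at 18.9, 13.3 and 13.4 FPKM in HectD3 1 to 3, against 11.9 and 17.4 FPKM in LacZ 3 and LacZ 4. At that threshold 0 of 47 genes were lower in either setting, where 4.32% of all genes were without the 3 libraries and 3.17% without LacZ 1 and LacZ 2.

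Other genes of the same phases, from lists that do not hold the 47, shared the high level in LacZ 1. Of 51 other S phase and replication genes tested, 46 had a negative log2 fold change, where 55.5% of all genes did, with a median of -0.16. Of the 51, 2, Dnmt1 and Chaf1a, were lower at an unadjusted p under 0.05, where 4.28% of all genes were, while 0 were higher. Of 61 other G2 and M phase genes, 56 had a negative log2 fold change, with a median of -0.25. LacZ 1 was highest in 55 of the 61, where it was in 32.6% of all genes. In that list 1 gene, Cks1b, was higher at an unadjusted p under 0.05, where 2.87% of all genes were, and 0 were lower. At an adjusted p under 0.05 (limma) 0 genes passed in either list. Without LacZ 1, LacZ 2 and HectD3 4, the log2 fold change was negative in 24 of 51, with a median of 0.01, and in 26 of 61, with a median of 0.04. Over all genes it was negative in 43.8%. At an unadjusted p under 0.05, 1 of 51 was then lower and 1 higher, and 1 of 61 was lower and 3 higher. Over all genes 4.32% were lower and 5.16% higher in that setting. The median level of the G2 and M phase list, relative to the mean of the 8 libraries, was -0.22, -0.13, -0.03 and -0.10 in HectD3 1 to 4, against 0.67, 0.20, -0.20 and -0.13 in LacZ 1 to 4.

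Dnmt1, which copies DNA methylation at the fork, was at 11.3, 11.6, 12.0 and 11.5 FPKM in HectD3 1 to 4, against 16.9, 14.7, 12.4 and 14.9 FPKM in LacZ 1 to 4. The log2 fold change of Dnmt1 was -0.31 (limma, standard error 0.10, adjusted p = 0.625), and without LacZ 1, LacZ 2 and HectD3 4 it was -0.20. Chaf1a, a chaperone that places histones behind the fork, had a log2 fold change of -0.29 (limma, standard error 0.12, adjusted p = 0.683), and -0.09 without those 3 libraries. Neither gene was past an unadjusted p of 0.05 without them. The groups did not overlap, with HectD3 lower, in 3 of the 51 genes, Dnmt1, Chaf1a and Brca1, the last of which was named after its values were seen, as in 2.81% of all genes. In the other direction, the smallest p values of this list belonged to Rpa3, of the single-strand binding complex, at 0.24 (standard error 0.12), and Tipin, of the fork protection complex, at 0.03 (standard error 0.10). Without LacZ 1, LacZ 2 and HectD3 4 the log2 fold change of Rpa3 was 0.38 and past an unadjusted p of 0.05.

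Hjurp, the chaperone of the centromeric histone, was the G2 and M phase gene with the smallest p among those lower with HectD3. Its level was 5.06, 5.13, 5.36 and 7.35 FPKM in HectD3 1 to 4, against 21.5, 14.6, 5.89 and 6.04 FPKM in LacZ 1 to 4. High levels stood in LacZ 1 and LacZ 2, and HectD3 4 lay above LacZ 3 and LacZ 4. For Hjurp the log2 fold change was -0.78 (limma, standard error 0.36, adjusted p = 0.710), and that of Ncapg, a condensin subunit, was -0.37 (standard error 0.18). Without LacZ 1, LacZ 2 and HectD3 4 they were -0.17 for Hjurp and -0.09 for Ncapg. Cks1b, a Cdk-binding protein, was at 41.1, 40.5, 42.6 and 47.8 FPKM in HectD3 1 to 4, against 38.1, 37.2, 36.5 and 38.9 FPKM in LacZ 1 to 4, with a log2 fold change of 0.18 (limma, standard error 0.07, adjusted p = 0.683). Without those 3 libraries Cks1b was at 0.13 on that scale and no longer past an unadjusted p of 0.05. Its groups did not overlap, with every HectD3 library higher, as in 2.44% of all genes, and in 1 other gene of the 61, Plk4, named after its values were seen, every HectD3 library was lower. Wee1, the kinase that restrains Cdk1, had a log2 fold change of 0.12 (standard error 0.13).

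Other brakes on the cycle and p53 targets as a list did not share the high level in LacZ 1. It was highest in 8 of 25, near its share over all genes, 32.6%. Of the 25 tested, 10 had a negative log2 fold change, where 55.5% of all genes did, with a median of 0.03. At an unadjusted p under 0.05, 2 genes, Btg1 and Btg2, were higher, where 2.87% of all genes were, while 0 were lower, where 4.28% of all genes were. Neither was past that threshold without LacZ 1, LacZ 2 and HectD3 4. In that setting 2 of 25 others were higher, Cdkn2c at 0.61 and Cdkn2b at 1.11 on the log2 scale, where 5.16% of all genes were. There 0 of 25 were lower, where 4.32% of all genes were. With all 8 libraries the log2 fold change was -0.08 for Cdkn2c (standard error 0.34) and 0.96 for Cdkn2b (standard error 0.70). Cdkn2b was at 11.7, 12.9 and 14.0 FPKM in HectD3 1 to 3, against 2.07 and 12.3 FPKM in LacZ 3 and LacZ 4. Its groups thus overlapped, and HectD3 4, left out there, was at 1.47 FPKM. At an adjusted p under 0.05 (limma) 0 of 25 passed. Btg1, an antiproliferative factor, was at 259, 311, 288 and 269.8 FPKM in HectD3 1 to 4, against 205, 233, 246 and 257 FPKM in LacZ 1 to 4. All HectD3 libraries lay above the LacZ libraries, as in 2.44% of all genes, by a log2 fold change of 0.26 (limma, standard error 0.09, adjusted p = 0.662). Btg2, a p53 target of the same family, was at 62.2, 99.4, 60.6 and 46.6 FPKM in HectD3 1 to 4, against 23.2, 26.7, 60.3 and 54.8 FPKM in LacZ 1 to 4. LacZ 1 and LacZ 2 were low and the others overlapped, and the log2 fold change of 0.75 (limma, standard error 0.33, adjusted p = 0.698) was 0.32 without LacZ 1, LacZ 2 and HectD3 4. Rb1, which binds E2F, and its relative Rbl1 had log2 fold changes of -0.27 (standard error 0.16) and -0.28 (standard error 0.15). Both were highest in LacZ 1, followed by LacZ 2 for Rb1 and by HectD3 3 for Rbl1, and without the 3 libraries their log2 fold changes were -0.02 for Rb1 and -0.11 for Rbl1.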

How the data were processed

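RNA-seq was measured in 8 libraries, 4 with HectD3 and 4 with LacZ, grouped by their labels. The authors trimmed reads with cutadapt, aligned them with HISAT2, and estimated transcripts with StringTie; the deposited values are FPKM from Ballgown, for 15976 transcripts. Tool versions and the genome build are not stated in the sources used here. Depth is unknown: among at least 72 low transcripts, under 0.3 FPKM, at most 3.85% shared 1 ratio between libraries within 0.2%, so no counting error is given. No 2 libraries shared identical values.

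FPKM was summed per gene name (39 of the 47 genes have 1 transcript), and limma 3.58.1 was run on log2(FPKM + 1) for 12567 genes whose mean reached 0.5 FPKM (R 4.3.3; trend, two-sided) with Benjamini-Hochberg adjustment over all of them. This scale understates changes of low genes. The exact permutation test used all 70 assignments. The tests were tested on simulated data. The 47 genes, the lists and the alternatives were chosen with earlier results of these data known. Fold changes are given for genes at an unadjusted p under 0.05 and, in each role, for the gene with the smallest p in each direction; 2 genes in each direction are named from each other list. Cdk1, Stmn1, Cdkn2c and Cdkn2b were given theirs because they passed that threshold without 3 libraries. Alternatives were a pseudocount of 0.1, a mean filter of 0 or 5 FPKM, TPM, quantile normalization, median-ratio scaling, the most abundant transcript, no trend, library weights, an ordinary linear model, a replicate block, and leaving out libraries.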

Additional observations from a re-analysis of the deposited data

Results flagged for a closer look

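In 94 groups of 4 libraries, the 47 genes in each virus, 3 groups had 1 library far from the others by Dixon's ratio, the gap to the nearest library over the whole range (past its critical value for 4 samples), where chance flags about 1 in 20 groups. Cdkn1b in HectD3 4 was at 54.8 FPKM and in the other HectD3 libraries at 30.7 to 32.5 FPKM, a ratio of 0.926. Pcna in HectD3 3 was at 72.7 FPKM, against 61.2 to 62.6 FPKM in the other HectD3 libraries, a ratio of 0.882. Rrm2 in HectD3 3 was at 12.1 FPKM, against 8.43 to 8.91 FPKM in the other HectD3 libraries, a ratio of 0.867.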

How the results depend on the processing

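Of the 47 genes, 0 passed an adjusted p under 0.05 in any of 21 alternatives. Over all genes, the number past it was 1 with the settings reported, 2 with a mean of at least 5 FPKM or TPM, 3 with median-ratio scaling or quantile normalization, 11 with library weights, 0 with the ordinary linear model, 8 without LacZ 1, LacZ 2 and HectD3 4, 2 without LacZ 1 and LacZ 2, and 1 to 5 with 1 library left out. At an unadjusted p under 0.05, the genes lower with HectD3 numbered 538, or 324 with means of 5 FPKM or more and 329 to 865 with 1 library left out. Those higher numbered 361, or 172 with TPM, 769 with library weights, 798 with the ordinary linear model, 644 without the 3 libraries, 551 without LacZ 1 and LacZ 2, and 220 to 442 with 1 library left out. The cause of these differences was not tested.

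Among the 47 genes, the number lower at an unadjusted p was 0, or 3 with TPM, 1 with median-ratio scaling or library weights, and 0 to 9 with 1 library left out. The number higher was 1, or 3 without the 3 libraries and 3 without LacZ 1 and LacZ 2. The number with a negative log2 fold change was 42, or 17 without the 3 libraries and 18 without LacZ 1 and LacZ 2, and 28 with library weights. The median of -0.25 was 0.053 without the 3 libraries, 0.048 without LacZ 1 and LacZ 2, -0.022 with library weights, and -0.35 to -0.11 with 1 library left out. The fold change was followed over all alternatives only for the genes named by the rule above. Among these, signs turned for Cdk2 (-0.045 with TPM, and -0.035 to 0.033 with 1 library left out). They also turned for E2f1 and Cdc20 without the 3 libraries (0.062 and 0.037), and without LacZ 1 and LacZ 2 for Cdkn1b, Cdc20 and Racgap1 (0.15, 0.14 and 0.015). Others of the 47 genes turned too without the 3 libraries, such as Cdk1 (0.31) and Top2a (0.12).

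Replicate numbers showed no pairing of the samples. Deviations of same-numbered libraries correlated at -0.61 to 0.34, and 0 of 4 HectD3 libraries correlated best with their own number. HectD3 4 correlated at 0.54 with both LacZ 1 and LacZ 2. The libraries that stood apart thus weigh on these correlations, which cannot exclude a pairing. With the replicate block, 0 of 47 genes passed an adjusted p under 0.05, 1 was higher at an unadjusted p, and 450 genes in all were lower and 167 higher.

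Depth is unknown, so no limit of detection can be given. The spread among LacZ libraries, with a median SD of 0.45 on the log2 scale over the 47 genes, limits which differences 4 libraries against 4 can call.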
